A study of Mus musculus with 5 samples.

Results

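The comparison of estradiol with vehicle rests on 2 of the 5 libraries, E2 and Vehicle, which hold 5342 of the 14344 barcodes of the series. Both came from mammary glands of BALB/cj females that had been ovariectomized, so every group lacked ovarian hormones before treatment. At 20 weeks after ovariectomy and about 30 weeks of age, the E2 mice received 17β-estradiol at 1 µg per animal by intraperitoneal injection each day for 1 week, and the Vehicle mice received the DMSO solvent. Both ate the same control food with DMSO. The other libraries, E2+PBDE, E2+P4 and E2+P4+PBDE, received the same E2 with progesterone (P4, 0.1 mg per animal), with food that held the flame retardants BDE-47, BDE-100 and BDE-153 (PBDE), or with both, and their levels are given for reference. Each group is 1 library, and the methods give how many mice were randomized to a group but not how many went into a library, so intervals cover counting error only and differences between animals or preparations were not measured.

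Estradiol acts through the estrogen receptor, a transcription factor encoded by Esr1. In the mammary epithelium the receptor is found mainly in the hormone-sensing luminal cells, which relay the signal to their neighbours through secreted factors such as amphiregulin. Alveolar luminal cells make milk proteins, basal cells are contractile and form the outer layer of the duct, and fibroblasts, some of which carry the receptor too, lay down the surrounding matrix and secrete growth factors.

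The 3 compartments were read from the barcodes by UMIs (unique molecular identifiers, each a captured transcript) of a few genes. Luminal barcodes held at least 10 UMIs of Prlr and Cited1 per 10000, fibroblast barcodes at least 50 of Col1a1, Col1a2, Col3a1 and Dcn with fewer than 5 of Epcam and Krt18, and basal barcodes at least 8 of Krt14 and Krt17. The luminal rule took 226 Vehicle and 831 E2 barcodes, the fibroblast rule 2546 and 813, and the basal rule 62 and 64. Within a compartment the UMIs of each gene were summed and divided by the compartment's total, which gave levels per 1000000 UMIs (CPM). The totals were 4023598 (Vehicle) and 14615905 (E2) in luminal, 13758894 and 5876730 in fibroblast, and 494617 and 829612 in basal barcodes, so basal values were the least precise. Ratios are E2 over Vehicle with 1 UMI added to each sum, and genes were counted as higher or lower from 2-fold. The genes of the rules were not counted, and the numbers of barcodes were not compared, since those genes can move with the treatment.

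The compartments held the markers of their names. The 10 pan-luminal markers summed to 11405 CPM in Vehicle and 13214 CPM in E2 luminal barcodes, the 10 basal markers to 15145 and 16995 CPM in basal barcodes, and the 10 fibroblast markers to 45459 and 29841 CPM in fibroblast barcodes. None was pure. In luminal barcodes the fibroblast markers summed to 3120 CPM in Vehicle and 881 CPM in E2, and the 12 hematopoietic markers to 462 and 93.3 CPM. Alveolar genes (Csn3, Wfdc18, Trf, Ltf, Lcn2 and Mfge8, at least 10 UMIs per 10000 together) were held by 60.2% of luminal barcodes in Vehicle and 36.8% in E2, and by 79.0% and 40.6% of basal barcodes. Only 6 barcode sequences occurred in both libraries. Median depth per barcode was 5345 UMIs in Vehicle and 8698 UMIs in E2.

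In luminal barcodes cell cycle genes were higher in E2, with single genes of other roles. Of 10602 genes with at least 50 UMIs, 277 were at least 2-fold higher (2.61%) and 522 at least 2-fold lower (4.92%). The genes higher in E2 included the EGF receptor ligand Areg, the calmodulin-binding protein gene Pcp4, the secreted glutathione peroxidase gene Gpx3 and a block of cell cycle genes. The genes lower in E2 included S100g and Sncg, and genes known from immune and stromal cells. The median log2 ratio over all genes in these barcodes was -0.15, and centring on it gave 361 higher and 323 lower genes, so that 52.8% of the genes past 2-fold were higher in place of 34.7%.

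**Figure D1:**
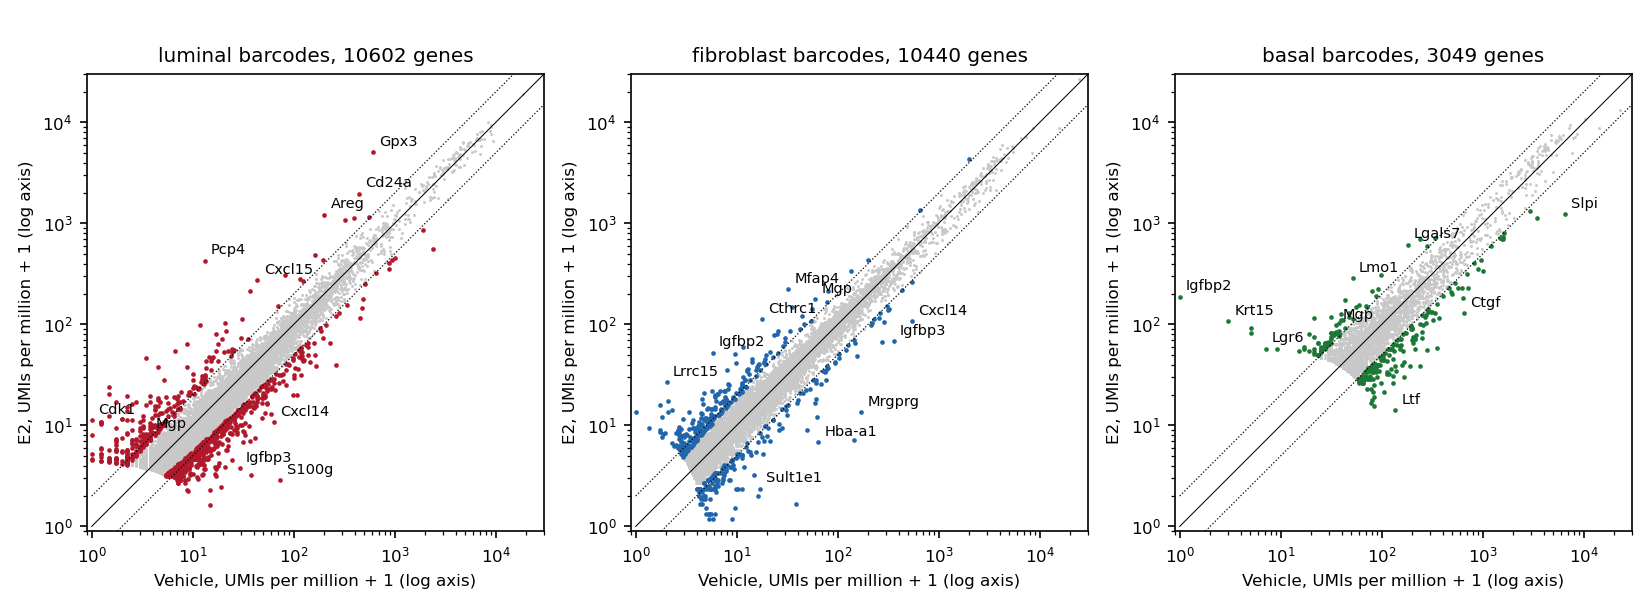
Level of each gene in Vehicle (x axis) and E2 (y axis), in CPM plus 1 on log axes, for luminal, fibroblast and basal barcodes. Each point is a gene with at least 50 UMIs over both libraries, coloured points are past 2-fold, the solid line marks equality and the dotted lines 2-fold. Pcp4 and Gpx3 lie far above the line in luminal barcodes and S100g far below it, while in basal barcodes Igfbp2 lies at 0 UMIs in Vehicle.

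Areg encodes amphiregulin, a ligand of the EGF receptor that hormone-sensing cells release. Its level was 200 CPM in Vehicle and 1216 CPM in E2, 6.08-fold higher (95% interval 5.67 to 6.54). The other libraries with E2 held 1497 CPM (E2+PBDE), 1122 CPM (E2+P4) and 1021 CPM (E2+P4+PBDE), so all 4 libraries with E2 lay above Vehicle. After thinning each barcode to 3000 UMIs, 29.2% of luminal barcodes in Vehicle (66 of 226) and 69.8% in E2 (580 of 831) held an Areg UMI, against 48.2% and 88.1% before thinning. Fibroblast barcodes stood at 0.903% and 6.40% after thinning (1.77% and 13.5% before), with median depths of 5219 and 6698 UMIs against 15383 and 12932 in luminal barcodes. Hematopoietic barcodes, which include immune cells able to make Areg, stood at 12.3% and 17.6% after thinning.

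Pcp4, which encodes a small calmodulin regulator best known from Purkinje neurons, had the luminal ratio whose interval lay farthest above 1. It held 49 UMIs in Vehicle (12.2 CPM) and 6246 UMIs in E2 (427 CPM), a 34.4-fold difference (26.5 to 47.5). Levels in the other libraries with E2 varied widely, at 88.5 CPM in E2+PBDE, 187 CPM in E2+P4 and 340 CPM in E2+P4+PBDE. The thinned share of luminal barcodes with a Pcp4 UMI was 3.98% in Vehicle and 25.4% in E2, against 8.85% and 40.6% before thinning. After thinning, 0 of 106 and 0 of 34 hematopoietic barcodes held one, with exact upper limits of 3.42% and 10.3% and median depths of 4925.5 and 7198.5 UMIs, and before thinning the shares there were 0% and 2.94%. In E2 the 5 barcodes with most Pcp4 held 15.7% of its UMIs.

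Gpx3, an extracellular peroxidase that removes hydrogen peroxide, was the most abundant in E2 of the genes at least 2-fold higher. It stood at 606 CPM in Vehicle and 5030 CPM in E2, 8.29-fold higher (7.97 to 8.64), and at 6003, 1974 and 3967 CPM in E2+PBDE, E2+P4 and E2+P4+PBDE. Cd24a, a surface glycoprotein used to sort mammary epithelium, stood at 442 CPM in Vehicle and 1967 CPM in E2 (4.45-fold, 4.25 to 4.68), a gene chosen after its values were seen. Cxcl15, a chemokine of epithelial tissues, stood at 42.7 and 272 CPM, 6.32-fold higher (5.45 to 7.44).

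Several secretory and metabolic genes were higher in luminal barcodes and differed there from both other compartments. Man1a, a Golgi mannosidase that trims N-glycans, stood at 80.3 CPM in Vehicle and 310 CPM in E2 (3.85-fold). Tmed3, a cargo receptor of early secretory vesicles, stood at 323 and 1088 CPM (3.37-fold). Glul, which makes glutamine, stood at 391 and 1131 CPM (2.89-fold). Crym, which binds thyroid hormone, stood at 20.1 and 85.7 CPM (4.21-fold). All 4 genes were above Vehicle in each of the other libraries with E2 as well, the lowest of those levels being 193 CPM for Man1a, 878 CPM for Tmed3, 769 CPM for Glul and 63.7 CPM for Crym. Dmbt1, a mucosal defence glycoprotein, and Aoc1, a diamine oxidase, were also higher in luminal barcodes, without an established difference from the other compartments. Dmbt1 went from 10 UMIs (2.49 CPM) to 667 UMIs (45.6 CPM), and from 1 to 14 UMIs in fibroblast barcodes. Aoc1 went from 1 UMI to 143 UMIs (9.78 CPM), and from 0 to 1 UMI in fibroblast barcodes.

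The proliferation genes of luminal barcodes were higher together. Of 34 listed genes 32 were measured (at least 20 UMIs), 24 were at least 2-fold higher and 0 lower, with a median log2 ratio of 1.74 against -0.20 over all measured genes. Over all genes at that minimum 3.51% were at least 2-fold higher and 6.98% at least 2-fold lower. Birc5, a survivin that acts in chromosome segregation, held 2 UMIs in Vehicle and 332 in E2 (22.7 CPM), a ratio of 30.6 (12.6 to 379). Cdk1, the kinase that drives mitosis, held 0 UMIs in Vehicle, which allows up to 0.746 CPM, and 150 UMIs in E2 (10.3 CPM), at least 13.8-fold higher. Top2a, a DNA topoisomerase of dividing cells, held 3 and 237 UMIs (16.4-fold, 7.35 to 106). Stmn1, a microtubule regulator, stood at 10.7 and 97.3 CPM (8.90-fold), and Rrm2 and Tk1, which supply deoxynucleotides, at 2.73 and 18.6 CPM and with 7 and 234 UMIs.

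These UMIs sat in few, deep barcodes. With at least 2 UMIs of 14 mitotic genes after thinning to 3000 UMIs, 0 of 226 Vehicle luminal barcodes counted as cycling (exact upper limit 1.62%), and 30 of 831 in E2 (3.61%, exact interval 2.45 to 5.11%), with 1.62% to 2.68% in the other libraries with E2. Without thinning the shares were 4.42% in Vehicle and 13.7% in E2. Of the 30 cycling barcodes in E2, 25 had over 15000 UMIs. Without the barcodes over 15000 UMIs the ratio was below 2-fold for Birc5, 1.18 for Cdk1 and 0.785 for both Top2a and Prc1, another mitotic gene. Over all Vehicle luminal barcodes these genes held 2, 0, 3 and 1 UMIs in that order, so the added UMI weighs on these ratios. In basal barcodes 1 of 62 counted as cycling after thinning in Vehicle (1.61%, exact interval 0.0408 to 8.66%) and 6 of 64 in E2 (9.38%, 3.52 to 19.3%). In fibroblast barcodes 1 of 2546 and 2 of 813 did. Of the measured proliferation genes 5 of 18 in basal and 8 of 24 in fibroblast barcodes were at least 2-fold higher, and 0 lower. Over all genes with at least 20 UMIs, 3.8% and 4.46% were at least 2-fold higher there. In hematopoietic barcodes 16 of 106 counted as cycling in Vehicle and 13 of 34 in E2. The part of multiplets or of depth in the luminal difference was not tested.

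**Figure D2:**
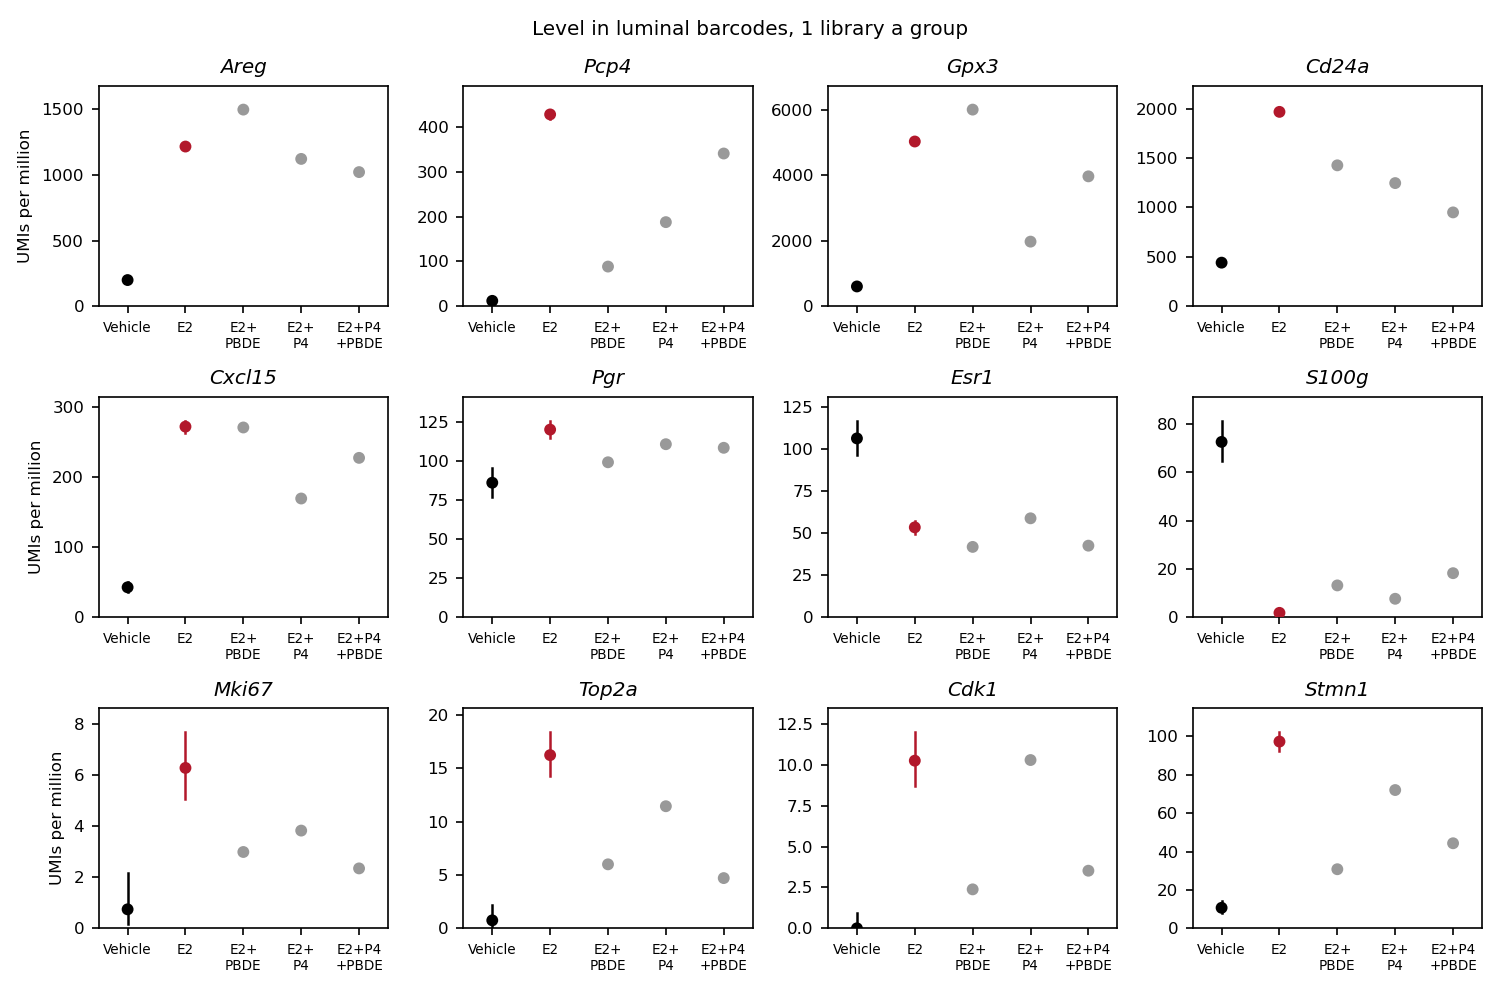
Level of 12 genes in luminal barcodes of the 5 libraries, in CPM on linear axes that start at 0. Each point is 1 library, and vertical lines on Vehicle (black) and E2 (red) are exact 95% Poisson intervals of counting error. All 4 libraries with E2 lie above Vehicle for Areg, Pcp4, Gpx3, Cd24a and Cxcl15 and below it for Esr1 and S100g.

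The receptors and classical targets did not move as 1 group. Pgr, the progesterone receptor gene and a well-known estrogen target, stood at 86.2 CPM in Vehicle and 120 CPM in E2, a ratio of 1.39 (1.24 to 1.57), below 2-fold. Esr1 itself stood at 106 CPM in Vehicle and 53.4 CPM in E2 (0.502, 0.446 to 0.567), and at 41.8 to 58.7 CPM in the other libraries with E2. Greb1, an estrogen-induced cofactor of the receptor, held 4 and 27 UMIs, too few to place its ratio of 1.54 (0.647 to 7.31) on either side of 1. Of the 27 measured genes of the estrogen response list only Areg was at least 2-fold higher, near the 3.51% of all genes. Myc, Fhl2, Cxcl12 and Hspb8 were at least 2-fold lower, beside 6.98% of all genes. Myc, a transcription factor that drives growth, stood at 136 CPM in Vehicle and 59.3 CPM in E2. It is also among 26 listed genes known to respond to tissue dissociation, of which 6 had a ratio above 1 in luminal barcodes. Of 12 measured hormone receptor genes 0 were at least 2-fold higher and 2 lower, Oxtr and Thrb, both with fewer than 20 UMIs in each library.

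S100g, which encodes the calcium carrier calbindin-D9k, was the gene whose interval lay farthest below 1 in luminal barcodes. It held 292 UMIs in Vehicle (72.6 CPM) and 27 UMIs in E2 (1.85 CPM), a ratio of 0.0263 (0.0165 to 0.0378), with 7.67 to 18.3 CPM in the other libraries with E2. Its UMIs were unevenly spread, since 5 barcodes held 75.0% of the Vehicle sum and 1 of them 149 UMIs. Sncg, a synuclein, stood at 40.8 and 6.43 CPM (6.31-fold lower), and Igfbp3, which binds insulin-like growth factors in the extracellular space, at 28.1 and 2.81 CPM (9.86-fold lower). Igfbp3 was more abundant in fibroblast barcodes (355 CPM in Vehicle), and the fibroblast markers were lower in E2 luminal barcodes. The part of fibroblast RNA in its luminal ratio was not tested. Subtracting the hematopoietic level gave a luminal ratio of 4.44. That step sets low levels to 0, so this value depends on the added UMI and gives no direction. Lpl, a lipase that releases fatty acids from lipoproteins, stood at 109 and 35.4 CPM and Id2, an inhibitor of differentiation factors, at 126 and 43.7 CPM.

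Some of the lower genes are known from other cell types. Cd74 and H2-Aa, which present antigen, stood at 258 and 39.0 CPM and at 106 and 18.9 CPM, and 5 barcodes held 83.5% and 81.5% of their Vehicle UMIs. Inmt, a methyltransferase, stood at 37.0 and 2.26 CPM. Dgkk, a diacylglycerol kinase, stood at 13.7 and 0.616 CPM and is not such a gene here. It was held by 32 of 226 Vehicle luminal barcodes, with 0 UMIs in fibroblast barcodes of both libraries. Of the 10 fibroblast markers 6 were at least 2-fold lower in luminal barcodes and of the 12 hematopoietic markers 10. Over all genes with at least 20 UMIs there, 6.98% were. After leaving out luminal barcodes with at least 20 fibroblast-rule UMIs or 2 hematopoietic UMIs per 10000, a choice made after seeing the data, the ratios were 0.599 for Cd74, 0.597 for H2-Aa and 0.644 for Il1b, a cytokine of myeloid cells, no longer past 2-fold. The alveolar genes Csn3, which encodes kappa-casein, and Ltf, which encodes lactoferrin, were at least 2-fold lower too, at 938 and 433 CPM and at 474 and 144 CPM, beside the smaller share of E2 luminal barcodes with alveolar genes, whose part was not tested.

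Promoter windows of Areg, Pcp4 and S100g, a known estrogen-responsive ligand gene and the genes whose luminal intervals lay farthest above and below 1, are shown from RefSeq (GRCm38.p6) over 250 bases before and 50 after the annotated start. Capitals mark the estrogen receptor half-site GGTCA or its reverse complement TGACC. The half-site occurred in 40.5% of all 32851 windows, and the full palindrome GGTCANNNTGACC, which contains both, in 23 of them (0.07%) and in none of the 3 shown. Windows were matched for 79.5% of the genes tested in luminal barcodes, too few to compare shares between gene sets. The windows lie at chr5:91139349-91139648 (plus strand), chr16:96467356-96467655 (plus strand) and chrX:162964550-162964849 (minus strand).
Areg: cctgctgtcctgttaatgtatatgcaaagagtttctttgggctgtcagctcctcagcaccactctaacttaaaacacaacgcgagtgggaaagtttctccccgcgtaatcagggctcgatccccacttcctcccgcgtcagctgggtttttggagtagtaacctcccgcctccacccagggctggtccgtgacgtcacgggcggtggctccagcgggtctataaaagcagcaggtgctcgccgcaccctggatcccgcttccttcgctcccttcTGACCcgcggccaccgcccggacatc
Pcp4: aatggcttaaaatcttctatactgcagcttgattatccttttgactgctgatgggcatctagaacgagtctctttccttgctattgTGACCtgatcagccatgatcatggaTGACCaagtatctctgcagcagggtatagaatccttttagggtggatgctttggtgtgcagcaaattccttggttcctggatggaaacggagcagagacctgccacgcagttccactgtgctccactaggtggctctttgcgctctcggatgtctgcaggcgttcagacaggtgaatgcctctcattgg
S100g: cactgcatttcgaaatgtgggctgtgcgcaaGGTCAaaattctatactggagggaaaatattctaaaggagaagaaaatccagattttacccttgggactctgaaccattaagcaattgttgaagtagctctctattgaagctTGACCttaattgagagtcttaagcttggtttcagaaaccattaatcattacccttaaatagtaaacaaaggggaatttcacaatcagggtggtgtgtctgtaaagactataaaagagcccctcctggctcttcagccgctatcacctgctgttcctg
Areg held 1 half-site and Pcp4 and S100g held 2 each. A match describes letters and not binding, and receptor sites far from the start lie outside these windows.

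In fibroblasts single matrix and secreted factor genes were past 2-fold, while the matrix list as a whole was near all genes. Of 10440 genes with at least 50 UMIs, 251 were at least 2-fold higher (2.4%) and 174 at least 2-fold lower (1.67%). The genes higher in E2 included the surface protein gene Lrrc15, the matrix genes Mfap4, Cthrc1, Spon1, Postn and Col7a1, and the growth factor gene Mdk. The genes lower in E2 included Igfbp3, Cxcl14, Mrgprg and Sult1e1.

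Lrrc15, a membrane protein known from activated fibroblasts, stood at 1.02 CPM in Vehicle and 25.7 CPM in E2, 23.7-fold higher (14.6 to 47.3), and at 21.7, 46.4 and 12.7 CPM in the other libraries with E2. Mfap4, a microfibril-associated protein, stood at 31.3 and 222 CPM (7.11-fold, 6.38 to 7.95), and at 127 to 293 CPM in the other libraries with E2. Cthrc1, a secreted protein of remodelled matrix that was chosen after its values were seen, stood at 16.9 and 112 CPM (6.59-fold). All 3 lay above Vehicle in every library with E2.

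Postn, which encodes periostin, was abundant in both libraries, at 651 CPM in Vehicle and 1343 CPM in E2 (2.06-fold). It and Mfap4 were the 2 of 34 measured genes of the matrix list that passed 2-fold, and 0 were lower. The median log2 ratio was 0.03 against 0.06 over all measured genes. Cthrc1, Spon1 and Col7a1, also past 2-fold, are not on that list. Of all genes with at least 20 UMIs in fibroblast barcodes, 4.46% were at least 2-fold higher and 2.35% lower. Spon1, a matrix protein, stood at 79.7 and 212 CPM (2.65-fold), Mdk, the heparin-binding growth factor midkine, at 34.2 and 149 CPM (4.35-fold), and Col7a1, the anchoring fibril collagen, at 0.727 and 14.8 CPM (18.7-fold). Ednra, an endothelin receptor, stood at 1.31 and 13.1 CPM (9.61-fold).

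Igfbp3 and Cxcl14 were abundant in Vehicle fibroblasts and lower in E2. Igfbp3 stood at 355 CPM in Vehicle and 67.6 CPM in E2, 5.25-fold lower (4.75 to 5.84), and at 48.9 to 64.1 CPM in the other libraries with E2. Cxcl14, a chemokine, stood at 540 and 107 CPM, 5.03-fold lower (4.64 to 5.47). Neither rested on a few barcodes, since 5 barcodes held 4.23% and 4.83% of their Vehicle UMIs.

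Mrgprg, an orphan receptor of the Mas-related family, stood at 170 CPM in Vehicle and 12.6 CPM in E2, 13.3-fold lower (10.7 to 17.2), with 26.1 to 50.8 CPM in the other libraries with E2. Sult1e1, the sulfotransferase that inactivates estrogens, held 220 UMIs in Vehicle and 8 in E2, 10.5-fold lower (5.86 to 27.5). C7, a complement component, held 110 UMIs in Vehicle and 1 in E2, and Fam150b, which encodes a ligand of the ALK receptor, 211 and 6 UMIs. Cdkn1a, an inhibitor of the cell cycle, stood at 213 and 97.0 CPM. The hemoglobin genes Hba-a1, Hba-a2 and Hbb-bs, which belong to red blood cells, also led the ranking, and 5 barcodes held 99.0% of the Vehicle UMIs of Hba-a2 and 94.1% of those of Hbb-bs.

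Cholesterol synthesis genes lay on opposite sides in fibroblast and luminal barcodes. In fibroblast barcodes 4 of 21 measured genes were at least 2-fold lower and 0 higher, with a median log2 ratio of -0.60 against 0.06 over all measured genes. Of all measured genes 2.35% were at least 2-fold lower there and 4.46% higher. Sqle, the squalene epoxidase, stood at 19.4 CPM in Vehicle and 8.51 CPM in E2. Idi1 and Insig1, an isomerase of the pathway and its feedback regulator, stood at 29.4 and 13.3 CPM and at 145 and 69.6 CPM. In luminal barcodes Fdps, Mvd, Mvk and Msmo1 were at least 2-fold higher and Insig1 lower, with a median of 0.36 against -0.20. Of all measured genes in luminal barcodes 3.51% were at least 2-fold higher and 6.98% lower. Fdps, which makes farnesyl diphosphate, stood there at 12.7 and 36.1 CPM, and in fibroblast barcodes at 41.1 and 21.8 CPM. The difference between the compartments in this list was not tested.

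Some genes higher in fibroblast barcodes were epithelial, smooth muscle or endothelial genes. The pan-luminal markers summed to 259 CPM in Vehicle and 542 CPM in E2 there, and to 211 and 494 CPM in hematopoietic barcodes. Epcam and Krt18 are among these markers, and the rules of both kinds of barcode capped them. Areg stood at 3.78 and 19.7 CPM, Pcp4 at 0.0727 and 7.15 CPM, and Pgr at 2.83 and 7.66 CPM. Of the smooth muscle genes 7 of 17 measured were at least 2-fold higher and 0 lower. Of the 10 basal markers 8 were at least 2-fold higher, with a sum over all 10 of 889 and 916 CPM. Oxtr and Apoe, the basal markers left, had no ratio above 1. Of 5 measured endothelial markers 4 were at least 2-fold higher, and all 10 endothelial markers summed to 265 CPM in Vehicle and 223 CPM in E2. Neither sum follows the markers past 2-fold, so it does not measure RNA of basal or endothelial cells. Of 23 measured genes of the estrogen response list 6 were at least 2-fold higher in fibroblast barcodes, Pgr, Areg, Wnt4, Celsr2, Kcnk1 and Foxa1, and Hspb8 was lower. The part of RNA from these cells was not tested. Tagln and Acta2, which build the contractile apparatus, stood at 10.5 and 59.0 CPM and at 22.4 and 77.6 CPM, and 5 barcodes held 61.1% and 71.7% of their E2 UMIs. Ccl12, a monocyte chemokine, held 0 UMIs in Vehicle and 74 in E2, at least 57.8-fold higher, with 55 of the 74 in 1 barcode. Lgals7, a galectin of stratified epithelium, held 15 and 97 UMIs, with 56 of the 97 in 1 barcode. Of 25 measured interferon-induced genes 4 were at least 2-fold higher, among them Ifit3 at 5.89 and 20.9 CPM. Over all genes with at least 20 UMIs in fibroblast barcodes, 4.46% were at least 2-fold higher and 2.35% lower.

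In basal barcodes Igfbp2, Krt15 and Lmo1 were among the genes higher in E2, and Slpi and Ctgf among those lower. Of 3049 genes with at least 50 UMIs, 72 were at least 2-fold higher (2.36%) and 156 at least 2-fold lower (5.12%). Igfbp2, a secreted binder of insulin-like growth factors, held 0 UMIs in Vehicle, which allows up to 6.07 CPM, and 155 UMIs in E2 (187 CPM), at least 30.8-fold higher. It stood at 110 to 205 CPM in the other libraries with E2, and 5 barcodes held 71.0% of its E2 UMIs. After thinning, 20.3% of E2 basal barcodes held an Igfbp2 UMI (40.6% before) and 0% in Vehicle, against 0 of 34 and 0 of 106 hematopoietic barcodes, with median depths of 10480.5 and 6040 UMIs in basal barcodes.

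Krt15, a keratin of basal epithelial layers, held 1 UMI in Vehicle and 88 in E2 (106 CPM), a ratio of 26.5 (9.17 to 2096). Nkd1, an inhibitor that Wnt signalling induces, held 2 and 68 UMIs (4.04 and 82.0 CPM), and Lgr6, a receptor for R-spondins, 3 and 47 UMIs (6.07 and 56.7 CPM). Wif1, a secreted Wnt inhibitor chosen after its values were seen, held 15 and 67 UMIs, a ratio of 2.53 (1.51 to 5.02), which was 1.53 with barcodes weighted equally and 1.65 after thinning. In each of the other libraries with E2 these 4 genes lay above Vehicle, at 42.0 to 171 CPM for Krt15 and 35.3 to 63.0 CPM for Nkd1.

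Lmo1, a transcription cofactor, stood at 50.5 CPM in Vehicle and 286 CPM in E2 (5.46-fold, 3.74 to 8.91), and differed in basal barcodes from both other compartments. Lgals7 stood at 180 and 615 CPM (3.39-fold), and Id4, a regulator known from mammary stem cells, at 97.0 and 310 CPM (3.14-fold). Col4a1, a collagen of the basement membrane, stood at 78.8 and 213 CPM (2.65-fold). The contraction genes showed little difference, with 1 of 18 measured past 2-fold, Actg2, and Acta2 at 5752 and 7171 CPM.

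Slpi, a secreted protease inhibitor of mucosal defence, was the most abundant of the genes lower in basal barcodes, at 6478 CPM in Vehicle and 1225 CPM in E2, 5.29-fold lower (4.93 to 5.68). Ctgf, a matricellular factor induced by YAP and TGF-beta, stood at 653 and 129 CPM (5.03-fold lower). Tnfaip6 and Ptx3, both secreted in inflammation and able to modify hyaluronan matrix, stood at 348 and 57.9 CPM and at 279 and 54.2 CPM. Both were more abundant in fibroblast barcodes, at 2419 and 1073 CPM in Vehicle, and 5 barcodes held 68.0% and 58.0% of their Vehicle basal UMIs. The fibroblast markers summed to 4405 CPM in Vehicle and 1954 CPM in E2 basal barcodes, and their part was not tested. Thbs1, an adhesive glycoprotein, stood at 993 and 335 CPM. Slpi, Ctgf, Tnfaip6, Ptx3 and Thbs1 were below Vehicle in each of the other libraries with E2. Of 12 measured complement and defence genes 6 were at least 2-fold lower and 0 higher, with a median log2 ratio of -0.94 against -0.12 over all measured genes, and over all genes at that minimum 3.8% were at least 2-fold higher and 7.17% lower.

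The alveolar share limits these values, as 49 of the 62 Vehicle basal barcodes and 26 of the 64 in E2 held alveolar genes. Ltf stood at 135 and 13.3 CPM, Wfdc18, a whey acidic protein family member, at 166 and 28.9 CPM, and Fxyd2, a subunit of the sodium pump, at 129 and 25.3 CPM. Of their Vehicle UMIs 5 barcodes held 92.5%, 96.3% and all 64. Without barcodes that held alveolar genes or met another rule, only 11 Vehicle and 33 E2 basal barcodes were left. The ratio among them was 0.795 for Fxyd2, 0.557 for Ptx3 and 1.79 for Krt23, a keratin that was 5.72-fold higher over all basal barcodes. Over all 62 Vehicle basal barcodes Krt23 held only 4 UMIs, and Fxyd2 held its UMIs in 2 barcodes. The added UMI weighs on such sums, so the values of Fxyd2 and Krt23 cannot show what the alveolar share contributed. For Ltf the ratio was 0.530, but Ltf is among the genes that define alveolar barcodes. Leaving those barcodes out removes its UMIs, so this value cannot show what the alveolar share contributed. Wfdc18 stood above Vehicle in each of the other libraries with E2, at 192 to 242 CPM.

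Few genes passed 2-fold in the same direction in all 3 compartments. Of 2955 genes measured in all of them, 4 were higher (0.135%) and 3 lower (0.102%). None of the 4 met the limits in all compartments without barcodes over 15000 UMIs, after thinning, without overlapping and alveolar barcodes or at a minimum of 200 UMIs, by ratio or by too few UMIs, and of the 3 lower genes 1, 2, 1 and 2 did. Igfbp2 was 7.16-fold higher in luminal, 10.6-fold in fibroblast and at least 30.8-fold in basal barcodes, from 0.249 to 3.49 CPM, from 4.80 to 51.4 CPM and from 0 to 187 CPM. In luminal barcodes it held 1 and 51 UMIs, a ratio with an interval of 2.41 to 565. Of its E2 UMIs 5 barcodes held 64.7% in luminal and 50% in fibroblast barcodes. Mgp, the matrix Gla protein that inhibits calcification, was 2.41-fold (1.40 to 5.37), 3.02-fold (2.75 to 3.31) and 2.68-fold higher (1.65 to 5.05). Mgp passed 2-fold in luminal barcodes by a small margin and stood at 1.51 there without the barcodes that held fibroblast or hematopoietic UMIs.

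The other genes higher in all 3 belong to DNA replication. Hist1h2ap, a replication-dependent histone gene, was 3.68-fold, 10.8-fold and 3.88-fold higher (1.21-fold in luminal and 1.64-fold in fibroblast barcodes without those over 15000 UMIs), with 62 of its 73 fibroblast UMIs in 1 barcode and 98.6% of its E2 basal UMIs in 5 barcodes, and 2810417H13Rik, which encodes a PCNA-binding factor, was 9.82-fold, 9.79-fold and 15.3-fold higher. In hematopoietic barcodes Hist1h2ap was 2.51-fold and 2810417H13Rik 2.19-fold higher. There 16 of 106 barcodes in Vehicle and 13 of 34 in E2 counted as cycling, so these ratios do not gauge free RNA.

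Cxcl14 was lower in every compartment, at 63.1 and 9.78 CPM in luminal, 540 and 107 CPM in fibroblast and 2905 and 1319 CPM in basal barcodes, where it was most abundant. Its ratios were 0.155, 0.199 and 0.454, and 0.398 in hematopoietic barcodes. Hspa1a, an inducible heat shock protein, had ratios of 0.410, 0.442 and 0.283, and Tuba1c, a tubulin, of 0.476, 0.426 and 0.414, beside 0.526 and 0.429 in hematopoietic barcodes. Without barcodes over 15000 UMIs Hspa1a stood at 0.567 in luminal and Tuba1c at 0.524 in basal barcodes. Of 26 genes known to respond to tissue dissociation, Hspa1a among them, 6 had a ratio above 1 in luminal, 1 in fibroblast and 1 in basal barcodes, against 32.6%, 56.8% and 42.0% of all measured genes. The median log2 ratios were -0.58, -0.48 and -0.72, against -0.20, 0.06 and -0.12 over all measured genes.

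**Figure D3:**
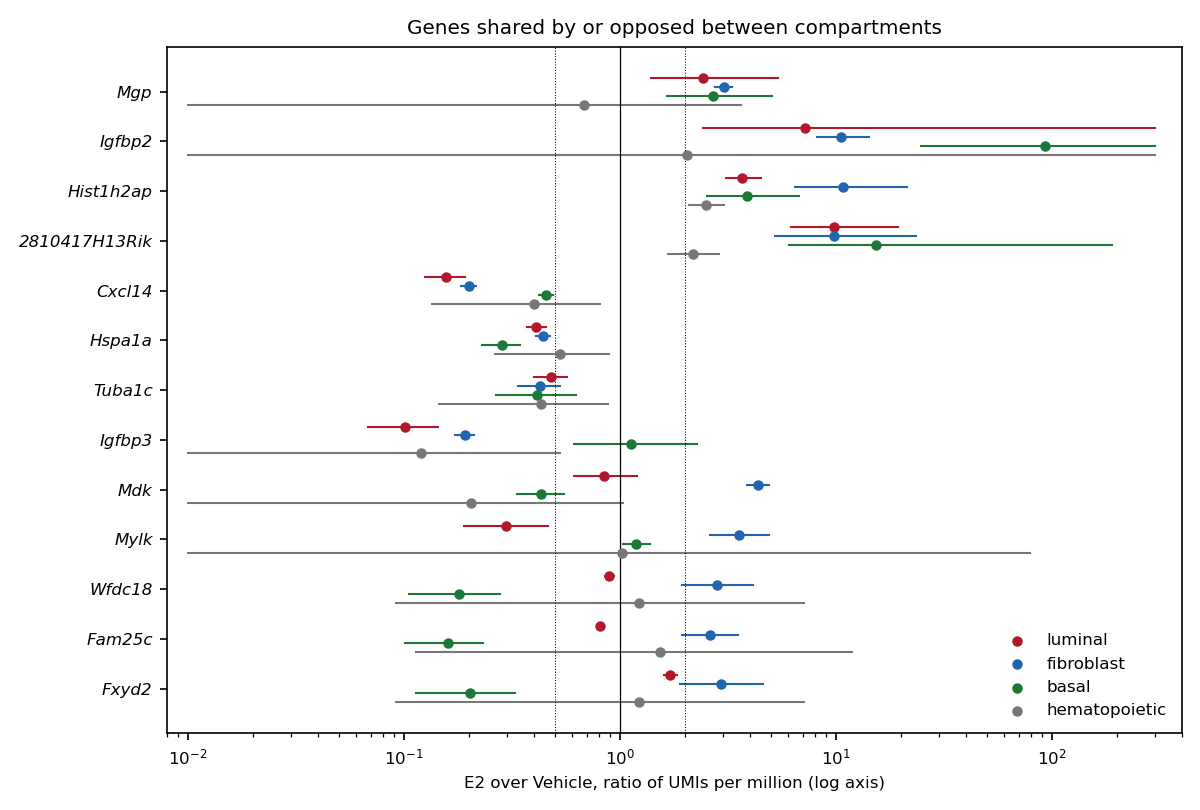
Ratio of CPM, E2 over Vehicle, on a log axis for 13 genes in luminal, fibroblast, basal and hematopoietic barcodes. Points are ratios with 1 UMI added to each sum, lines are 95% intervals of counting error cut at the drawn limits, and dotted lines mark 2-fold. Cxcl14 lies below 1 in all 4 kinds of barcode, and Mdk above 1 in fibroblast and below 1 in basal barcodes.

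More genes were particular to a compartment, that is, past 2-fold there and at least 2-fold away from the ratio in both others with counting intervals that left out equality. Luminal barcodes had 98 such genes (0.925% of those tested), 22 higher and 76 lower. Fibroblast barcodes had 91 (0.872%), 85 higher and 6 lower, and basal barcodes 55 (1.81%), 19 higher and 36 lower. Among the higher genes were Gpx3, Glul, Tmed3, Man1a, Crym and Stmn1 in luminal, Col7a1, Ednra, Mdk, Spon1 and Tagln in fibroblast and Lmo1, Nkd1, Ramp1 and Col4a1 in basal barcodes. Among the lower genes were Cd74, Mylk and Id2 in luminal and Hba-a1, Hba-a2 and Hbb-bs in fibroblast barcodes. In Vehicle 5 barcodes held 83.5% of the luminal Cd74 UMIs and 94.1% to 99.0% of the fibroblast UMIs of each hemoglobin gene. Without luminal barcodes that held fibroblast or hematopoietic UMIs the Cd74 ratio was 0.599. Mylk is among the 10 basal markers, which summed to 436 CPM in Vehicle and 247 CPM in E2 luminal barcodes. The part of basal RNA in its ratio was not tested. The genes lower in basal barcodes included Fxyd2, Wfdc18 and Fam25c, whose Vehicle UMIs also sat in few barcodes. No minimum of UMIs applied in the other compartments, so the added UMI can set the ratio there. Ednra, for instance, held 1 UMI in Vehicle and 0 in E2 basal barcodes. A particular gene could still differ elsewhere in the same direction. Stmn1 was at least 2-fold higher in fibroblast barcodes too, and Col7a1 held 15 UMIs in Vehicle and 62 in E2 basal barcodes. Ramp1, a coreceptor for peptide hormones of the calcitonin family, stood at 20.2 and 73.5 CPM in basal barcodes. Of 9325 genes tested in both luminal and fibroblast barcodes, 109 were at least 2-fold higher in luminal and 164 in fibroblast barcodes. Of these 17 were higher in both, 15.6% of the luminal and 10.4% of the fibroblast genes. At least 2-fold lower were 437 in luminal and 88 in fibroblast barcodes, and 40 in both, 9.15% and 45.5%. The fibroblast markers summed to 3120 CPM in Vehicle and 881 CPM in E2 luminal barcodes. The part of fibroblast RNA in the genes lower in both was not tested. Over all genes tested in a compartment, a wider set than these 9325, 2.61% were higher and 4.92% lower in luminal barcodes. In fibroblast barcodes these shares were 2.4% and 1.67%.

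**Figure D4:**
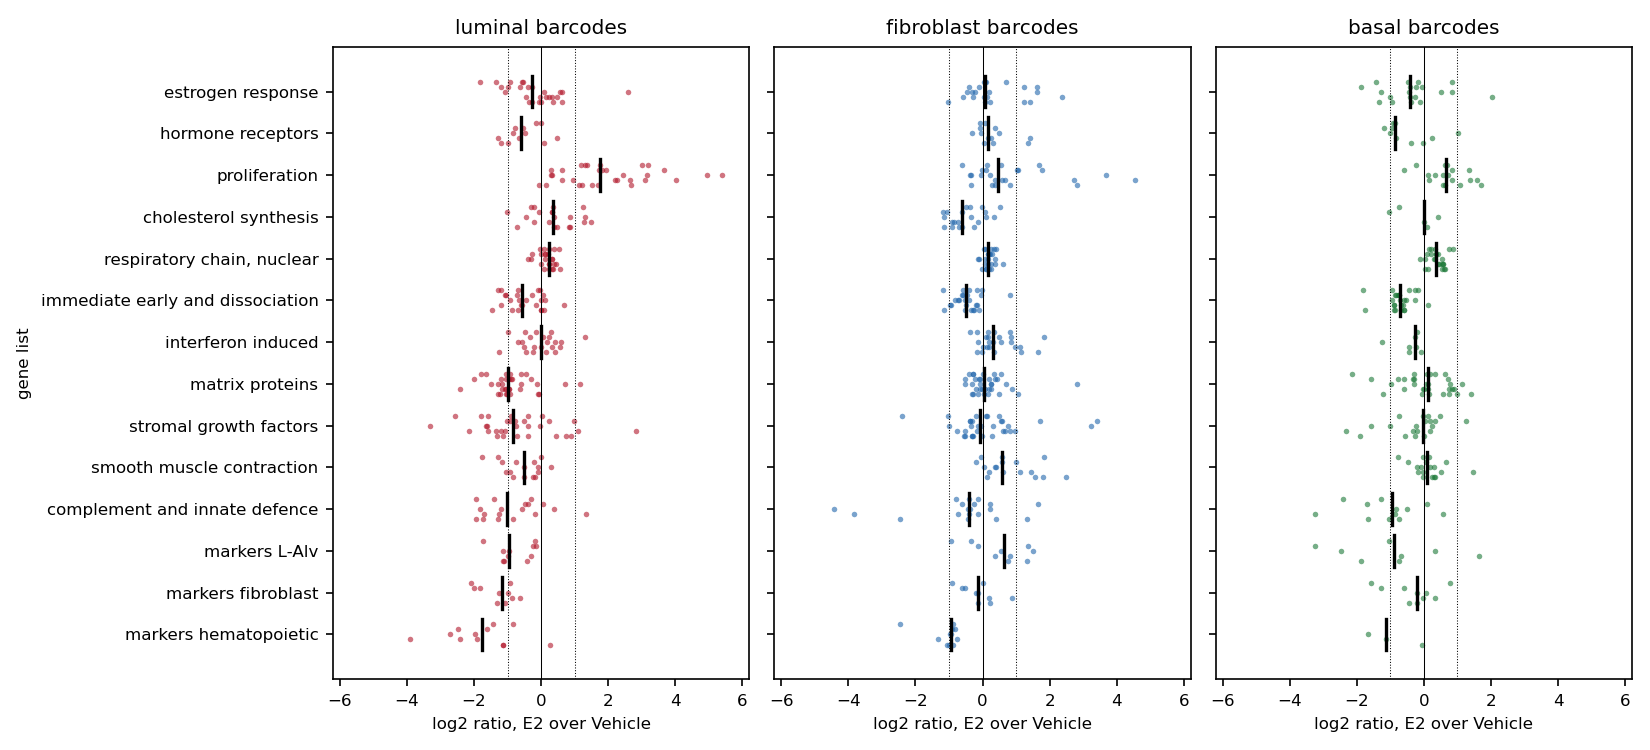
Log2 ratio, E2 over Vehicle, of the members of 14 gene lists in luminal, fibroblast and basal barcodes. Each point is a gene with at least 20 UMIs over both libraries, black bars are medians and dotted lines mark 2-fold. Proliferation genes lie to the right in luminal barcodes (median 1.74), cholesterol synthesis genes to the right in luminal and to the left in fibroblast barcodes, and hematopoietic markers to the left in luminal barcodes.

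Genes of energy metabolism and protein synthesis mostly stayed within 2-fold. Of 25 listed nuclear genes of the respiratory chain 0 passed 2-fold in any compartment, and 20 (luminal), 22 (fibroblast) and 24 (basal) had a ratio above 1, with medians of 0.22, 0.18 and 0.36 on the log2 scale. Over all measured genes 32.6%, 56.8% and 42.0% had a ratio above 1, with medians of -0.20, 0.06 and -0.12. Ndufa10, a respiratory chain gene outside that list, was at least 2-fold higher in basal barcodes, with 23 UMIs in Vehicle and 97 in E2. Of the ribosome biogenesis and translation list 0 of 23 passed 2-fold in luminal or fibroblast barcodes and 2 of 22 were higher in basal barcodes, Nhp2 and Dkc1, both of the small nucleolar ribonucleoproteins. In luminal barcodes 4 of 22 genes of protein folding in the endoplasmic reticulum were at least 2-fold lower, among them Hspa5, the chaperone BiP, at 645 and 318 CPM. In basal barcodes 4 of 21 were at least 2-fold lower, Hspa5, Herpud1, Xbp1 and Ddit3, and in fibroblast barcodes 0 of 22. Over all measured genes 6.98% were at least 2-fold lower in luminal barcodes. In basal barcodes 7.17% were at least 2-fold lower and 3.8% at least 2-fold higher.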

How the data were processed

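Cells of mammary glands were captured with 10x Chromium 3′ v2 chemistry after collagenase and DNase I digestion. The deposited values are UMI counts per gene and barcode, which the authors made with Cell Ranger 2.0.0 on mm10 per the submitters' processing notes, and they are not normalized. Barcodes with at least 500 genes, 1000 UMIs and at most 10% mitochondrial UMIs were kept, 3107 in Vehicle (20293934 UMIs before these thresholds) and 2229 in E2 (29590862 UMIs). No doublet caller was run; 3 and 1 luminal, 4 and 4 fibroblast and 5 and 5 basal barcodes met another rule in Vehicle and E2.

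UMIs were summed per library and compartment. Levels have exact Poisson 95% intervals and ratios exact conditional 95% intervals, which cover counting error only. With 1 library per group no test between groups was possible. The limit for a gene at 0 is 3 counts of the compartment's total. Hematopoietic barcodes held at least 5 UMIs per 10000 of Ptprc, Cd52, Laptm5 and Coro1a. They also held fewer than 5 of Epcam and Krt18 and fewer than 50 of Col1a1, Col1a2, Col3a1 and Dcn. They served as a gauge of free RNA, except for Areg and cell cycle genes, which these cells can express themselves.

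Named genes are the 10 each way per compartment whose interval lies farthest from 1 (at least 50 UMIs, without the genes of the rule, mitochondrial genes, genes named Gm or ending in Rik, and Xist), up to 10 each way shared by the compartments and up to 8 each way particular to one, members of 36 gene lists, and Pcp4, Areg, Pgr, Greb1 and Esr1. The gene 2810417H13Rik, which this rule leaves out, is named because it is among the 4 shared genes. The comparison, the lists and the rules were chosen with earlier results of these data known. Some genes that the rule names are not reported here.

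The computation of ratios and intervals was checked on simulated Poisson counts, the model that the intervals assume. Of genes set 3-fold apart 99% were called among 10604 luminal, 98% among 10446 fibroblast and 94% among 3051 basal genes. The simulation held no spread between barcodes or animals, so it does not show how the intervals perform on these data. Of the 15 alternatives 13 were planned and 2 were chosen after seeing the data. Python 3.11.15, numpy 2.4.6, scipy 1.17.1, pandas 2.3.3 and matplotlib 3.10.9 were used.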

Additional observations from a re-analysis of the deposited data

Results flagged for a closer look

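Several genes lay on opposite sides of 1 in a pair of compartments of the same libraries, past 2-fold in both. With 1 library a group the difference was not tested over samples, and the ratio between compartments has a counting interval only. Mdk was 4.35-fold higher in fibroblast barcodes and had a ratio of 0.430 in basal barcodes, 10.1 times apart (7.74 to 13.2). Mylk, the myosin light chain kinase, had ratios of 3.54 in fibroblast and 0.295 in luminal barcodes, the luminal ratio being 0.0832 of the other (0.0497 to 0.139). Basal markers, Mylk among them, summed to 436 CPM in Vehicle and 247 CPM in E2 luminal barcodes, and the part of basal RNA was not tested. Wfdc18 had ratios of 2.82 in fibroblast and 0.180 in basal barcodes, Fxyd2 of 2.93 and 0.202, and Fam25c of 2.61 and 0.159, with basal ratios of 0.0637, 0.0690 and 0.0610 of those in fibroblasts. These 3 basal values rested on few barcodes, since 5 barcodes held 96.3%, 100% and 99.2% of the Vehicle UMIs, and without barcodes over 15000 UMIs the basal ratios were 1.36, 15.5 and 3.49. All 64 Vehicle UMIs of Fxyd2 sat in 2 barcodes, so its value of 15.5 depends on the added UMI and gives no direction. In E2 fibroblast barcodes the 3 genes held 64, 49 and 97 UMIs, scattered over 61, 49 and 90 barcodes. Pan-luminal markers, of which both rules capped Epcam and Krt18, summed there to 259 CPM in Vehicle and 542 CPM in E2. In hematopoietic barcodes they summed to 211 and 494 CPM. The part of RNA from luminal cells in the fibroblast ratios was not tested.

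Barcodes with alveolar genes that met neither the 3 compartment rules nor the hematopoietic rule entered no comparison. They made up 12.9% of E2 barcodes (287 of 2229, exact interval 11.5 to 14.3%) and 2.29% of Vehicle barcodes (71 of 3107, 1.79 to 2.87%), and 10.3%, 27.9% and 11.3% in E2+PBDE, E2+P4 and E2+P4+PBDE.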

How the results depend on the processing

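No paired analysis was possible because each group is 1 library. Counts below run in the order luminal higher and lower, fibroblast higher and lower, basal higher and lower, where all 6 are given. A minimum of 20 UMIs gave 428, 851, 537, 283, 229 and 432 genes, 10 higher and 8 lower in all 3 compartments, and 151 particular to fibroblast and 147 to basal barcodes. A minimum of 200 UMIs gave 106, 194, 75, 71, 8 and 40, 0 higher in all 3, and 49, 35 and 7 particular to luminal, fibroblast and basal barcodes. No minimum gave 623, 2711, 2470, 624, 881 and 2527, 48 and 85 in all 3, and 192 and 221 particular to fibroblast and basal barcodes. Adding 5 UMIs left 177 luminal and 40 basal genes higher, and centring gave 323 luminal genes lower and 6.76 for Areg. Thinning to 3000 UMIs gave 102 and 278 luminal and 17 and 69 basal genes, 0 higher in all 3, 51, 32 and 19 particular genes and 5.44 for Areg. Without barcodes over 15000 UMIs, 138 luminal genes were higher, 2 genes other than the 4 named were higher in all 3, 178 and 47 were particular to luminal and fibroblast barcodes, and Areg stood at 4.67. That setting also reversed Prc1 and Top2a in luminal barcodes (both 0.785) and Esr1 (1.55), Fam25c (3.49), Fxyd2 (15.5) and Wfdc18 (1.36) in basal barcodes. Prc1 and Top2a held only 1 and 3 UMIs over all Vehicle luminal barcodes. Esr1 held 10 UMIs in Vehicle and 4 in E2 over all basal barcodes. Fxyd2 held all 64 of its Vehicle basal UMIs in 2 barcodes. The added UMI weighs on such low sums, so the values of Prc1, Top2a, Esr1 and Fxyd2 do not establish a direction. Without overlapping and alveolar barcodes 0 genes were higher and 1 lower in all 3, 51 were particular to luminal barcodes, Areg stood at 5.11 and Cthrc1 in basal barcodes at 0.663. Cthrc1 held 1 UMI over all Vehicle basal barcodes, so its value does not establish a direction. Doubling the compartment limits left 1 gene higher in all 3 and 59 particular to fibroblast barcodes. Fxyd2 in basal barcodes then stood at 11.6, which establishes no direction either. Subtracting the hematopoietic level sets low genes to 0, so that the added UMI fixes their ratio: it gave 1902, 5023, 5516, 1517, 503 and 638, 138 and 149 in all 3, 8.42 for Areg, 0.275 for Birc5, Cdk1, Cenpm, Dpep2, Hist1h2ap, Prc1 and Top2a and 4.44 for Igfbp3 in luminal, 2.34 for Tuba1c in fibroblast, and 0.596 for Areg, Cthrc1 and Hist1h2ap in basal barcodes. Leaving out barcodes with fibroblast or hematopoietic UMIs, chosen after seeing the data, left 2 genes higher in all 3. For the other reversed or moved values the cause was not tested.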
